A study of Mus musculus with 14 samples.

Results

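T helper cells that have been polarised in culture divide into Th1 and Th2 cells, which make different cytokines when they are stimulated. Th1 cells are known for interferon gamma, made under the transcription factor T-bet (gene Tbx21), and Th2 cells for the interleukins 4, 5 and 13, made under Gata3. The arrays described here compare the 2 cell types at 4 h of stimulation after infection with a retrovirus. They are 4 of the 14 arrays of the series and were chosen by their labels, as the arrays of retrovirus-infected cells with a stimulation time of 4 h. The Th1 side has 1 array of cells infected with a virus carrying a dominant negative form of Trpm4 (DN Trpm4, marked DN beside values) and 1 of cells infected with the empty vector. The Th2 side has the same 2 viruses, so the arrays form a DN Trpm4 pair and a vector pair. Trpm4 encodes an ion channel at the cell surface that opens when calcium inside the cell rises, and a dominant negative subunit is meant to block the native channel. The series was made to see what inhibiting it does to the genes each cell type expresses. All the T cells of the series, from mice, had been polarised for 2 weeks, and total RNA was hybridised to Affymetrix mouse arrays. No strain, age, cell number or infected fraction of the cells was given in the sources used here.

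Each of the 4 conditions was measured on 1 array, and the virus pairs took the place of replicates. The labels do not say that the arrays came from separate cultures, so the p-values measure only a spread between arrays, which may be technical. That spread was taken over the whole series and not from the 4 h arrays alone. Within a cell type, the DN Trpm4 and vector arrays of a time counted as replicates, as did the Trpm4 siRNA and Thy1 siRNA arrays. Any effect of these agents therefore entered that spread. Total signal ran from 8484320 to 8591406 in the Th1 arrays and from 7907071 to 8706950 in the Th2 arrays. The control probe sets for Gapdh showed a strong loss of 5′ signal in all 4 arrays, with log2 ratios of 3′ over 5′ signal of 5.91 (DN) and 5.77 (vector) in Th1 cells, against 5.80 (DN) and 5.53 (vector) in Th2 cells. For Actb the ratios were 4.44 (DN) and 4.48 (vector) in Th1 cells, against 4.85 (DN) and 3.96 (vector) in Th2 cells. The siRNA arrays of the series, used further on for comparison, had Gapdh ratios between −0.11 and 0.04. Retroviral Th1 arrays at 12 h had −0.01 and −0.08, so the 12 h pairs were not matched in this respect and are given as values with no test.

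Levels are given as log2 of the quantile-normalised probe set signal plus 16, so that a signal of 0 reads 4 and the median probe set reads 5.39. Differences are Th1 minus Th2 on that scale, which understates the change of transcripts near the floor. Testing was limited to probe sets with a signal above the array median in 2 or more of these 4 arrays, and 23443 probe sets for 10815 named genes met this. Of these, 4342 (18.5%) were higher and 4325 (18.4%) lower in Th1 cells at an adjusted p under 0.05 (limma, Benjamini-Hochberg over all probe sets tested). At a difference of 2-fold or more, 778 (3.32%) were higher and 1035 (4.41%) lower, and at 8-fold or more 39 were higher and 49 lower. Without the DN Trpm4 pair 1750 were higher and 2139 lower, and without the vector pair 3168 and 3147. With 37.0% of all probe sets called, a call by itself sets no gene apart. The lists below are read against those shares and against the median difference of all probe sets, 0.02. With 1 probe set per gene, as in the lists, 1881 of 10815 genes were higher and 2660 lower, with a median of −0.037. The lower share was thus larger on that basis than over all probe sets. Each gene of a list was read with 1 probe set, and a member that passed the filter only through the cell type where it was high had to differ. Every gene given below as higher or lower had both Th1 arrays on the same side of both Th2 arrays. In bulk RNA, fewer cells of a type and less RNA per cell cannot be told apart.

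The DN Trpm4 pair and the vector pair gave much the same differences. Across the tested probe sets the differences of the 2 pairs correlated at r = 0.876, as a description of these arrays, and 77.8% had the same sign in both. Within Th1 cells the DN Trpm4 array differed from the vector array by 2-fold or more in 0.0427% of probe sets. Within Th2 cells the share was 0.230%. Between Th1 and Th2 cells it was 7.74%, taken between means of 2 arrays and not between single arrays. The Th2 arrays lay further apart than the Th1 arrays, with a median absolute difference of 0.18 between the Th2 viruses and 0.098 between the Th1 viruses.

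**Figure D1:**
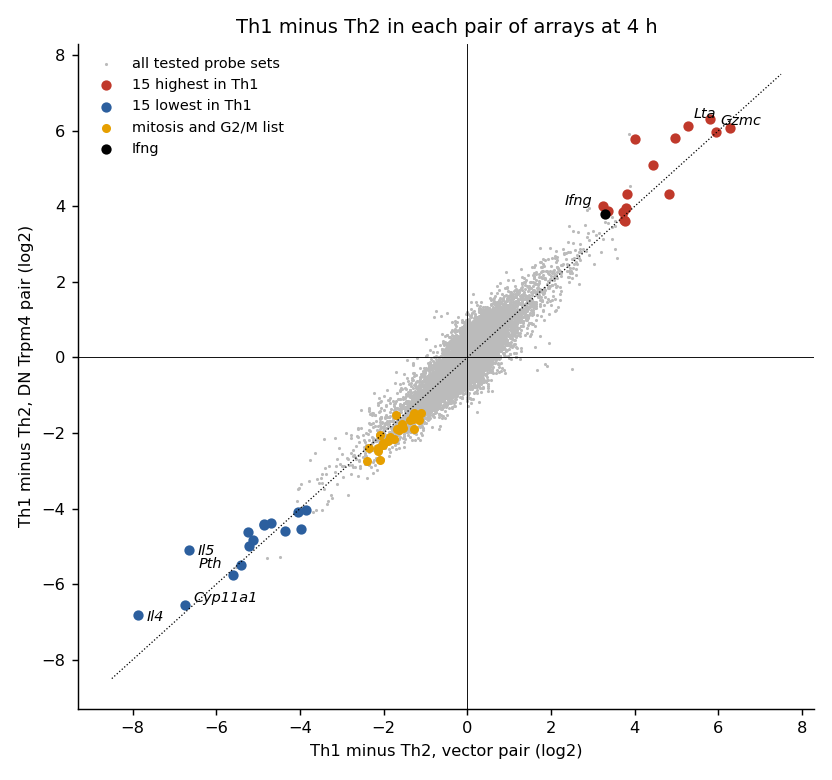
Difference between Th1 and Th2 cells (log2) in the vector pair (x axis) against the DN Trpm4 pair (y axis) for the 23443 tested probe sets at 4 h; the dotted line marks equal differences. The 15 highest and 15 lowest named genes, chosen for large differences of the same sign in both pairs, lie far out along the line. The 23 mitosis and G2/M genes all lie below 0 in both pairs.

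Marker genes followed the labels, clearly for Th2 cells and less fully for Th1 cells. All 11 tested genes of the Th2 marker list were lower in Th1 cells (median −2.25), and 8 of 11 tested Th1 markers were higher, with none lower (median 0.83). Ifng, the defining Th1 cytokine, was at 13.28 with DN Trpm4 and 13.23 with the vector in Th1 cells, against 9.48 (DN) and 9.94 (vector) in Th2 cells. The Th2 arrays thus had a clear Ifng signal of their own, and the difference was 3.54 (SE 0.14, adjusted p = 7.18e-09). Tbx21 differed little, at 11.001 (DN) and 10.93 (vector) in Th1 cells against 10.21 (DN) and 10.43 (vector) in Th2 cells, although the groups did not overlap (difference 0.65, SE 0.11, adjusted p = 0.000903). Gata3 was at 8.01 (DN) and 7.89 (vector) in Th1 cells against 10.88 (DN) and 11.19 (vector) in Th2 cells, a difference of −3.08 (SE 0.14, adjusted p = 2.03e-08). The 3 Th1 markers that did not pass were Cxcr3 (−0.03), Hlx (0.17) and Eomes (0.25), the first a chemokine receptor and the others transcription factors, named after their values were seen. Median centring of the arrays turned the Cxcr3 value to 0.03.

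The type 2 cytokines were far lower in Th1 cells, and Il4 had the largest difference of any named gene that passed. Il4, which drives Th2 differentiation and antibody class switching, was close to the floor in Th1 cells at 4.76 with DN Trpm4 and 4.34 with the vector, against 11.58 (DN) and 12.22 (vector) in Th2 cells. It was 163-fold lower in Th1 cells on this scale (difference −7.35, SE 0.22, adjusted p = 9.55e-10). Il5, the growth factor of eosinophils, had 4.37 (DN) and 4.24 (vector) in Th1 cells against 9.47 (DN) and 10.90 (vector) in Th2 cells, where the vector array was the higher of the 2 (difference −5.88, SE 0.33, adjusted p = 1.21e-07). Il13, which acts on epithelium and smooth muscle, was well above the floor in both cell types, at 7.69 (DN) and 7.52 (vector) in Th1 cells against 12.10 (DN) and 12.37 (vector) in Th2 cells (difference −4.63, SE 0.15, adjusted p = 1.97e-09).

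Those 3 genes lie in 1 stretch of mouse chromosome 11, and their start regions are shown because they and the genes beside them were lower in Th1 cells together. The windows are the 250 bases before the RefSeq start on GRCm38.p6, taken at the most upstream start, with Ifng from chromosome 10 for comparison. Capitals mark, on either strand, the core GGAAA of NFAT, the calcium-regulated factor of T cell activation, and a GATA word (AGATAA or AGATAG, and equally the words TGATAA and also TGATAG).
Il4, chr11:53618666-53618915 (minus strand): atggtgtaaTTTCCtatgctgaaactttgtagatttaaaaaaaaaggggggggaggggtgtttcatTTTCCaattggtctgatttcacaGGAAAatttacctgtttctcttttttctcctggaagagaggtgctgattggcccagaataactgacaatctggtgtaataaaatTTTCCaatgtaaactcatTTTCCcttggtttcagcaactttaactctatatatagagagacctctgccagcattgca
Il13, chr11:53634703-53634952 (minus strand): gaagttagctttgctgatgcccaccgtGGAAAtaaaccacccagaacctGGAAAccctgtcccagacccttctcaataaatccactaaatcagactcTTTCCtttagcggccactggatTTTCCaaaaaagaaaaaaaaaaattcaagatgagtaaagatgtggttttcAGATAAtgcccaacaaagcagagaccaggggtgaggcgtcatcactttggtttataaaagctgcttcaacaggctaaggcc
Il5, chr11:53720544-53720793 (plus strand): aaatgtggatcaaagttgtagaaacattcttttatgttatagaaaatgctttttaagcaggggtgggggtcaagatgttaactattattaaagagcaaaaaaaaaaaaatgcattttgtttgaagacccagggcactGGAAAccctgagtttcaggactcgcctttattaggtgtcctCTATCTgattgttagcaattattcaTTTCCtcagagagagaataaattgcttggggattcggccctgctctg
Ifng, chr10:118440796-118441045 (plus strand): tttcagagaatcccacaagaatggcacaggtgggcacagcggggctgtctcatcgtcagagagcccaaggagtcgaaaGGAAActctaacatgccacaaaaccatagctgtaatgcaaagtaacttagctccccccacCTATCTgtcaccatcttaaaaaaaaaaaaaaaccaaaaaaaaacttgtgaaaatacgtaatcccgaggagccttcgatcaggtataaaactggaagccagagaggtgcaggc
The Il4 window holds 5 NFAT cores, the Il13 window 4, the Il5 window 2 and the Ifng window 1. A GATA word is in the Il13, Il5 and Ifng windows, 1 in each, and not in the Il4 window. Such a core occurs in 55.6% of the 27025 promoter windows of named genes, and a GATA word in 27.1%, so either match is a description of letters and not a binding site.

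Along chromosome 11 the direction changed from one end of the cytokine cluster to the other. Kif3a, which encodes a kinesin motor, lies beside Il4 and was lower in Th1 cells (−0.94, adjusted p = 5.56e-05). Rad50, a DNA repair gene between Il13 and Il5 that is known in mouse to carry the locus control region of the cytokine genes, was at 6.77 (DN) and 6.88 (vector) in Th1 cells against 8.22 (DN) and 8.46 (vector) in Th2 cells (−1.51, adjusted p = 1.62e-06). Irf1, on the other side of Il5, was lower as well (−1.10, adjusted p = 1.86e-05), and Slc22a5 did not pass (−0.32, adjusted p = 0.0945). Further on, 3 genes were higher in Th1 cells. P4ha2, a subunit of collagen prolyl hydroxylase, was at 7.90 (DN) and 7.91 (vector) in Th1 cells against 5.68 (DN) and 5.46 (vector) in Th2 cells (2.34, adjusted p = 3.66e-05). Csf2, the growth factor GM-CSF, had 12.73 (DN) and 12.72 (vector) in Th1 cells against 10.83 (DN) and 11.58 (vector) in Th2 cells (1.52, adjusted p = 9.51e-05). Il3, a growth factor of blood cell precursors, had 11.63 (DN) and 11.63 (vector) in Th1 cells against 9.37 (DN) and 10.71 (vector) in Th2 cells (1.59, adjusted p = 0.00196). In both genes the Th2 vector array was closer to the Th1 arrays than the Th2 DN Trpm4 array was. The stretch and its neighbours were chosen after their values were seen.

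**Figure D2:**
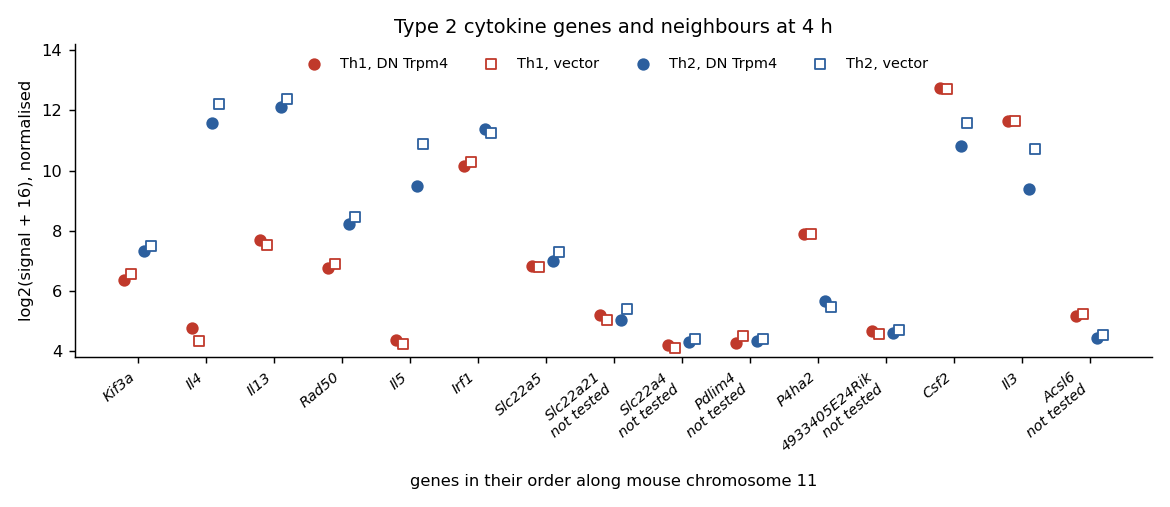
Normalised log2 signal (y axis) of the array-measured genes between Kif3a and Acsl6 in their order on mouse chromosome 11 (x axis), with 1 point per array at 4 h. The Th2 points are the higher ones from Kif3a to Irf1, and the Th1 points are the higher ones in P4ha2, Csf2 and Il3.

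Other secreted factors split between the cell types. In the list of interleukins and interferon, 5 of 17 tested genes were higher and 9 lower in Th1 cells. Il6 was at 5.61 (DN) and 5.38 (vector) in Th1 cells, near the middle of the array, against 8.31 (DN) and 9.14 (vector) in Th2 cells (−3.24, adjusted p = 1.49e-06). Il10, an inhibitory cytokine, had 9.78 (DN) and 9.62 (vector) in Th1 cells against 11.66 (DN) and 12.24 (vector) in Th2 cells (−2.25, adjusted p = 7.74e-07). Il2, the T cell growth factor, was on the other side, with 11.17 (DN) and 11.05 (vector) in Th1 cells against 7.69 (DN) and 8.63 (vector) in Th2 cells (2.95, SE 0.27, adjusted p = 5.78e-06).

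Beyond the cytokines, the 15 genes that were furthest lower in Th1 cells included several that are better known from other tissues. Cyp11a1, the enzyme that turns cholesterol into pregnenolone, was at 4.86 with DN Trpm4 and 5.28 with the vector in Th1 cells, against 11.42 (DN) and 12.04 (vector) in Th2 cells (−6.66, SE 0.19, adjusted p = 6.37e-10). A second Cyp11a1 probe set gave a difference of only −1.16, in the same direction. Akr1c18, which inactivates progesterone, differed by −4.92 (adjusted p = 1.36e-09). Pth, the parathyroid hormone gene, had 4.13 (DN) and 4.45 (vector) in Th1 cells, near the floor, against 9.90 (DN) and 10.05 (vector) in Th2 cells (−5.68, SE 0.13, adjusted p = 1.96e-10). Epas1, the hypoxia-regulated factor HIF-2 alpha, was among the brightest of the 15, with 7.19 (DN) and 7.21 (vector) in Th1 cells against 12.19 (DN) and 12.44 (vector) in Th2 cells (−5.11, adjusted p = 9.31e-10). The others were Ctsh, a lysosomal cysteine protease (−5.46), Ecm1, a secreted matrix protein (−4.98), Nts, the neurotensin precursor (−4.65), Cxcl3, a neutrophil chemokine (−4.53), Col18a1, a collagen (−4.48), Hgf, hepatocyte growth factor (−4.25), and Rnf152 (−4.07) and Rnf128 (−3.94), which encode ubiquitin ligases. All 15 had both Th1 arrays below both Th2 arrays, but the same direction in both pairs was a condition of their choice.

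Of the steroid and lipid mediator list, 6 of 11 genes were lower and 1 higher in Th1 cells (median −0.44). Ptgir, the prostacyclin receptor, had 4.77 (DN) and 4.58 (vector) in Th1 cells against 7.66 (DN) and 7.56 (vector) in Th2 cells (−2.93, adjusted p = 1.63e-08). Fdx1, the electron donor of Cyp11a1, was lower by a smaller margin (−0.74, adjusted p = 0.000327), and Ptger4, a prostaglandin E2 receptor, was the member higher in Th1 cells (0.74, adjusted p = 0.000312).

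**Figure D3:**
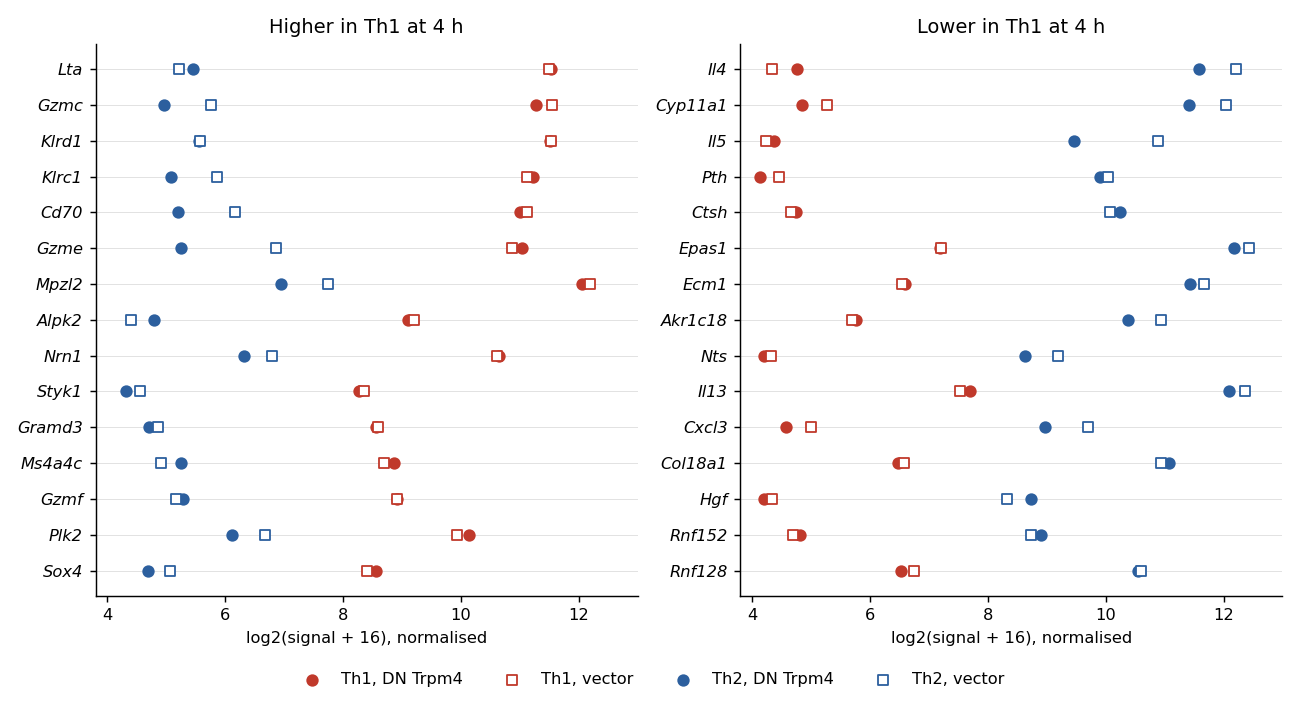
Normalised log2 signal (x axis) in each of the 4 arrays for the 15 named genes with the largest difference in each direction (y axis). In every gene both Th1 points (red) lie apart from both Th2 points (blue). The genes were chosen among those with the same direction in both pairs. Many of the lower points sit near the floor of 4.

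The TNF superfamily held the gene that was furthest higher in Th1 cells. The list had 12 of 20 tested members higher in Th1 cells and 4 lower, and both counts fell when either pair was left out. Its median difference was 0.61, against 0.72 without the vector pair and 0.59 without the DN Trpm4 pair. Lta, lymphotoxin alpha, was at 11.53 with DN Trpm4 and 11.49 with the vector in Th1 cells, against 5.46 (DN) and 5.22 (vector) in Th2 cells, a 72-fold difference (6.17, SE 0.14, adjusted p = 1.96e-10). Its neighbours on chromosome 17 were also higher: Tnf had 13 (DN) and 13.01 (vector) in Th1 cells against 10.71 (DN) and 11.10 (vector) in Th2 cells (2.10, adjusted p = 3.15e-07). Ltb, lymphotoxin beta, had 12.39 (DN) and 12.37 (vector) in Th1 cells against 10.03 (DN) and 9.85 (vector) in Th2 cells (2.44, adjusted p = 1.75e-07). Of the next genes on either side, Nfkbil1 was higher by 0.56 (adjusted p = 0.0014) and Lst1 did not pass (0.02, adjusted p = 0.938), and its sign changed with no normalization and without the vector pair. These neighbours were chosen after their values were seen. Cd70, the ligand of the costimulatory receptor Cd27, was at 11.01 (DN) and 11.13 (vector) in Th1 cells and at 5.20 (DN) and 6.16 (vector) in Th2 cells (5.38, SE 0.27, adjusted p = 4.06e-08). Fasl, the death ligand, and Tnfsf9, the ligand of 4-1BB, were higher by 2.03 and 1.996. Tnfrsf4, the costimulatory receptor OX40, went the other way and was chosen after its values were seen. It had 9.91 (DN) and 9.99 (vector) in Th1 cells against 11.24 (DN) and 11.51 (vector) in Th2 cells (−1.42, adjusted p = 2.76e-05).

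In the chemokine list 6 of 8 tested genes were higher in Th1 cells, with none lower. Cxcl3, the neutrophil chemokine given above as lower in Th1 cells, is not in that list. Ccl5, which attracts T cells and monocytes, had 9.51 (DN) and 9.59 (vector) in Th1 cells against 5.96 (DN) and 6.23 (vector) in Th2 cells (3.46, SE 0.12, adjusted p = 3.73e-09). Xcl1, the ligand of a dendritic cell receptor, differed by 2.83 and Ccl9 by 2.57. Ccl3 and Ccl4, the macrophage inflammatory proteins, were near the top of the scale in all 4 arrays and higher in Th1 cells by 1.37 and 0.96. Chemokine receptors leaned the other way, with 6 of 11 lower and 1 higher, although the lower count was 4 without the vector pair and 2 without the DN Trpm4 pair. Ccr8, a Th2-associated receptor, was at 4.90 (DN) and 4.99 (vector) in Th1 cells against 6.74 (DN) and 7.04 (vector) in Th2 cells (−1.94, adjusted p = 2.64e-06), and the member that was higher was Ccr2 (1.07, adjusted p = 6.67e-05).

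Genes of the cytotoxic granule were higher in Th1 cells, 10 of 13 tested, each by 2-fold or more (median 2.43). Perforin, encoded by Prf1 and needed for the granule proteases to enter a target cell, had 11.30 (DN) and 10.99 (vector) in Th1 cells against 7.29 (DN) and 7.81 (vector) in Th2 cells (3.60, SE 0.17, adjusted p = 2.73e-08). Granzyme C was at 11.27 (DN) and 11.55 (vector) in Th1 cells against 4.96 (DN) and 5.76 (vector) in Th2 cells (6.05, SE 0.22, adjusted p = 3.73e-09). Granzymes E (4.90), F (3.69), G (3.51) and D (3.38) followed; they are close relatives, and the probe sets of D and E carry the manufacturer's suffix for probes shared with other transcripts, so signal may be shared among them. Granzyme B, which is also in the Th1 marker list, had 13.09 (DN) and 12.97 (vector) in Th1 cells against 10.20 (DN) and 11.01 (vector) in Th2 cells, bright in all 4 arrays (2.43, adjusted p = 2.89e-06). Granzyme A did not follow the family: it was at 12.95 (DN) and 13.005 (vector) in Th1 cells against 13.32 (DN) and 13.39 (vector) in Th2 cells (−0.38, adjusted p = 0.0109), singled out after its values were seen. It was the 1 member called lower, and without the DN Trpm4 pair that count was 0.

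Some receptors of natural killer cells moved with the granule genes. In the list of killer cell lectin-like receptors 3 of 4 tested genes were higher in Th1 cells and none lower. The remaining gene had a difference of −0.33 and did not pass. Klrc3 and Klrc2, between Klrk1 and Klrc1 on chromosome 6, were near the floor and not tested. Klrd1 and Klrc1 encode CD94 and NKG2A, which pair into an inhibitory receptor and lie close to Klrk1 on chromosome 6. Klrd1 was at 11.505 (DN) and 11.52 (vector) in Th1 cells against 5.55 (DN) and 5.58 (vector) in Th2 cells (5.95, SE 0.14, adjusted p = 1.96e-10). Klrc1 had 11.22 (DN) and 11.13 (vector) in Th1 cells against 5.09 (DN) and 5.86 (vector) in Th2 cells (5.70, adjusted p = 4.3e-09). Klrk1, the activating receptor NKG2D, had 6.82 (DN) and 6.79 (vector) in Th1 cells against 4.58 (DN) and 4.72 (vector) in Th2 cells (2.15, adjusted p = 8.1e-07). Ncr1, a defining natural killer cell receptor, stayed below the array median and was not tested, at 5.14 (DN) and 4.62 (vector) in Th1 cells against 4.23 (DN) and 4.30 (vector) in Th2 cells. Tyrobp was not tested either, and Fcer1g had a difference of −0.01 (adjusted p = 0.969). Of the 7 natural killer markers read, 4 were tested and the 3 higher in Th1 cells were the receptors just named. The summed deposited signal of the 7 was 5028 (DN) and 5064 (vector) in Th1 cells against 127 (DN) and 170 (vector) in Th2 cells. Cd8a, the marker of cytotoxic T cells, was at 5.83 (DN) and 5.89 (vector) in Th1 cells against 5.67 (DN) and 5.18 (vector) in Th2 cells, a difference of 0.44 that did not pass (adjusted p = 0.366). It passed with the virus as a block (adjusted p = 0.0472), and the 2 other Cd8a probe sets gave −0.11 and −0.41. Cd8b1 was below the median and not tested. The part of such cells in the granule genes was not tested.

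The remaining genes among the 15 furthest higher in Th1 cells have mixed roles. Mpzl2, an adhesion protein, had 12.06 (DN) and 12.19 (vector) in Th1 cells against 6.95 (DN) and 7.75 (vector) in Th2 cells (4.78, adjusted p = 1.34e-08). Nrn1, which encodes the neuronal protein neuritin, had 10.64 (DN) and 10.61 (vector) in Th1 cells against 6.32 (DN) and 6.79 (vector) in Th2 cells (4.07, adjusted p = 1.05e-08). Alpk2 (4.57), Styk1 (3.88) and Plk2 (3.63) encode proteins with kinase domains, and Sox4 (3.62) encodes a transcription factor. Gramd3 (3.79) and Ms4a4c (3.69) complete the set.

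Transcription factors of T cell lineages went both ways, 9 of 24 higher and 11 lower in Th1 cells. After Gata3, the lower ones were led by Maf, which activates Il4 and had 9.63 (DN) and 9.36 (vector) in Th1 cells against 12.06 (DN) and 11.79 (vector) in Th2 cells (−2.43). Pparg, a lipid-regulated nuclear receptor, was also lower (−1.88). Twist1, a factor known to be induced in Th1 cells, was at 7.46 (DN) and 7.65 (vector) in Th1 cells against 5.002 (DN) and 5.42 (vector) in Th2 cells (2.35, SE 0.16, adjusted p = 6.32e-07). Irf8 (2.14) and Ikzf2, which encodes Helios (1.98), were higher as well. Stat4, which carries the interleukin 12 signal, was higher by 1.30 (adjusted p = 1.41e-05), and Socs3, an inhibitor of cytokine signalling, was lower (−1.14, adjusted p = 7.63e-06). In the STAT and SOCS list as a whole 7 of 16 were higher and 2 lower, with 3 higher without the DN Trpm4 pair and 1 lower without the vector pair. Among cytokine receptors 6 of 22 were higher and 10 lower (6 lower without the vector pair). Il18r1 had 11.80 (DN) and 11.76 (vector) in Th1 cells against 9.10 (DN) and 8.85 (vector) in Th2 cells (2.81, adjusted p = 8.75e-08). Ifngr1, the ligand-binding chain of the interferon gamma receptor, was also higher (1.77), whereas Il17rb, a chain of the interleukin 25 receptor, was lower (−2.47, adjusted p = 8.84e-08).

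Of the NF-kappaB subunits and inhibitors 8 of 13 were higher with none lower (5 without the DN Trpm4 pair), led by Nfkb2 with 8.25 (DN) and 8.16 (vector) in Th1 cells against 5.98 (DN) and 6.39 (vector) in Th2 cells (2.02, adjusted p = 2.67e-06). The inhibitor genes Nfkbid (1.43), Tnfaip3 (1.02) and Nfkbia (0.97) were higher too. Costimulatory and inhibitory receptors had 12 of 16 higher and 1 lower (median 1.02). The higher count fell without the DN Trpm4 pair (median 0.96). Slamf7, a self-ligand receptor, was at 9.74 (DN) and 9.77 (vector) in Th1 cells against 6.68 (DN) and 7.36 (vector) in Th2 cells (2.74), and Cd160 (2.55), Cd6 (2.51) and Cd5 (1.99) followed. In the AP-1, Egr and Nr4a list 11 of 24 were higher and 5 lower, with 7 higher without the DN Trpm4 pair and 1 lower without the vector pair. Nr4a2, an orphan nuclear receptor, had 11.42 (DN) and 11.44 (vector) in Th1 cells against 9.35 (DN) and 9.37 (vector) in Th2 cells (2.07), and the 2 related factors Batf3 and Batf went opposite ways, at 2.39 and −1.97. The core T cell receptor list stayed close to the share of all probe sets, with 3 of 16 higher and 1 lower, and 1 higher when either pair was left out. Cd3e (0.07, adjusted p = 0.642) and Cd4 (0.17, adjusted p = 0.251) did not pass, and were chosen after their values were seen.

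Cell cycle genes were lower in Th1 cells as a group. All 23 tested genes of the mitosis and G2/M list were lower in Th1 cells, each by 2-fold or more, with a median of −1.78 and a range from −2.57 to −1.28. Of the DNA replication and S phase list 21 of 23 were lower and none higher (median −1.30); the exceptions, chosen after their values were seen, were E2f1 (−0.31) and Pcna (−0.08), and Pcna turned positive without the vector pair, with median centring and with no normalization. Bub1b, a kinase of the spindle checkpoint, had 5.86 (DN) and 6.02 (vector) in Th1 cells against 8.60 (DN) and 8.41 (vector) in Th2 cells (−2.57, SE 0.16, adjusted p = 3.06e-07). Ccnb2, cyclin B2, had 6.62 (DN) and 7.04 (vector) in Th1 cells against 9.34 (DN) and 9.13 (vector) in Th2 cells (−2.40, SE 0.17, adjusted p = 6.32e-07). Cdk1, the kinase it activates (−2.31), Ccna2, cyclin A2 (−2.36), and Kif23, a motor of cytokinesis (−2.26), moved with them. Rrm2, which makes deoxynucleotides, led the S phase genes with 8.12 (DN) and 8.15 (vector) in Th1 cells against 10.54 (DN) and 10.27 (vector) in Th2 cells (−2.27, adjusted p = 1.1e-07), ahead of its partner Rrm1 (−1.86) and the helicase subunit Mcm5 (−1.80). Mki67, the proliferation antigen Ki-67, was chosen after its values were seen. It was at 8.498 (DN) and 8.82 (vector) in Th1 cells against 10.61 (DN) and 10.66 (vector) in Th2 cells (−1.98). Of the cell cycle genes named, Pcna was the one in which the groups of arrays overlapped.

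The start regions of Ccnb2 and Bub1b are shown as examples from this list. Capitals mark CCAAT, the word bound by the factor NF-Y, and the CHR words TTTGAA or TTCGAA, known from cell cycle promoters, on either strand in the 250 bases before the RefSeq start on GRCm38.p6.
Ccnb2, chr9:70421555-70421804 (minus strand): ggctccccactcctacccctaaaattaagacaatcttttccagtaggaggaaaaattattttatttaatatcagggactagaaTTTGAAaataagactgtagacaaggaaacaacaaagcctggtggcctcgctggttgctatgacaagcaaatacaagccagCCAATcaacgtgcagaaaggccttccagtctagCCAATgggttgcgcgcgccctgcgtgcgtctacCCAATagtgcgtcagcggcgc
Bub1b, chr2:118597961-118598210 (plus strand): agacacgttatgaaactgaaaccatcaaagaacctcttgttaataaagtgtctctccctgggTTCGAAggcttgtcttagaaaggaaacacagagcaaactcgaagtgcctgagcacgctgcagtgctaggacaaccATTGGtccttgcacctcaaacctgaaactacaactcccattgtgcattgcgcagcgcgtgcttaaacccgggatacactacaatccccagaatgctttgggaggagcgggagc
The Ccnb2 window holds 3 CCAAT words and 1 CHR word, and the Bub1b window 1 of each. A CCAAT word was in 17 of the 19 mitosis and G2/M genes with a window (89.5%) and in 34.5% of all windows, and a CHR word in 8 of the 19 (42.1%) and in 17.5% of all windows, as a description of letters. CCAAT was about as frequent in lists that did not move this way: it was in 16 of 18 ER folding genes (88.9%), a list with 5 higher and 4 lower of 20, and in 84.6% of the cholesterol genes, which leaned to Th1 cells. A CHR word was in 4 of 7 interferon-inducible GTPases (57.1%) and 4 of 9 chemokine receptors (44.4%), but in 15.8% of the S phase genes.

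The direction of the cell cycle difference depended on the set of arrays. In the siRNA arrays, 2 a side with Trpm4 or Thy1 siRNA and no strong 3′ bias, all 23 mitosis genes had a positive Th1 minus Th2 difference (median 1.46). The 4 h difference minus the siRNA difference was negative and passed in 23 of 23 mitosis genes and 21 of 23 S phase genes, where 17.4% of all probe sets passed in that direction, 17.9% in the other and 35.3% in either. A second Ccna2 probe set, not the one read for the list, had a larger change than the list's own: Th1 minus Th2 was −2.53 at 4 h, against 1.67 in the siRNA arrays, and the difference between them was −4.20 (SE 0.21, adjusted p = 1.6e-07). With the probe set read for the list it was −3.88. At 12 h the median mitosis difference was −1.57, and in the single untreated pair it was −0.57, so the median had the same sign there as at 4 h. The 12 h arrays of the 2 cell types were not matched in 3′ bias. With the untreated pair in place of the siRNA arrays, an alternative added after the data were seen, 19 of the 23 mitosis genes and 14 of the 23 S phase genes still passed, at medians of −1.28 and −0.73.

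Sex-linked genes moved with the siRNA comparison and not with the 4 h one. Xist, expressed from the inactive X chromosome, was at 11.43 (DN) and 11.68 (vector) in Th1 cells against 10.98 (DN) and 11.14 (vector) in Th2 cells at 4 h, a small difference whose call was lost when either pair was left out. The Y-linked Eif2s3y was at 9.92 (DN) and 9.85 (vector) in Th1 cells against 9.76 (DN) and 9.60 (vector) in Th2 cells at 4 h. In the siRNA arrays Xist averaged 4.93 in Th1 cells and 10.41 in Th2 cells, and Eif2s3y 8.98 in Th1 cells and 4.51 in Th2 cells (n = 2 each). All 4 retroviral arrays at 4 h therefore read both an X-inactivation and a Y-linked transcript, whereas in the siRNA arrays each cell type read only 1 of them. The part of this in the differences between the sets was not tested.

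Outside the cell cycle, the largest changes between the 4 h set and the siRNA set were of 2 kinds. In some genes the siRNA difference was the larger one in size. Ccr7, the receptor for homing to lymph nodes, had 5.10 (DN) and 5.18 (vector) in Th1 cells against 6.20 (DN) and 5.93 (vector) in Th2 cells at 4 h (−0.93), against a siRNA difference of 4.31, and the change was −5.24 (SE 0.20, adjusted p = 4.17e-08). Myb, a factor of immature cells, had 8.81 (DN) and 8.89 (vector) in Th1 cells against 8.73 (DN) and 8.78 (vector) in Th2 cells at 4 h and a siRNA difference of 3.91. Bcl2l11, the death inducer Bim, differed by 0.55 at 4 h and −3.49 in the siRNA set, and Gbp2, an interferon-inducible GTPase, by 0.35 at 4 h and −3.63 in the siRNA set. Of the 3 other Bcl2l11 probe sets tested, 2 had the opposite sign at 4 h, in a range from −0.03 to 0.49. In Gzmc, Ms4a4c, Ipcef1 and Styk1 the 4 h difference was the larger one in size. Gzmc differed by 6.05 at 4 h and 1.54 in the siRNA set, Ms4a4c by 3.69 at 4 h and −0.40 in the siRNA set, and Styk1 by 3.88 at 4 h and 0.22 in the siRNA set. Ipcef1 had 10.504 (DN) and 10.62 (vector) in Th1 cells against 7.501 (DN) and 7.91 (vector) in Th2 cells at 4 h (2.85), and a siRNA difference of −1.30. With the untreated pair in place of the siRNA set, the change in Ccr7, Myb, Ipcef1 and Eif2s3y turned its sign, at 1.16, 2.14, −0.29 and 1.20, and those in Gbp2 (0.61), Gzmc (0.97, adjusted p = 0.0763) and Xist (0.03, adjusted p = 0.947) no longer passed.

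**Figure D4:**
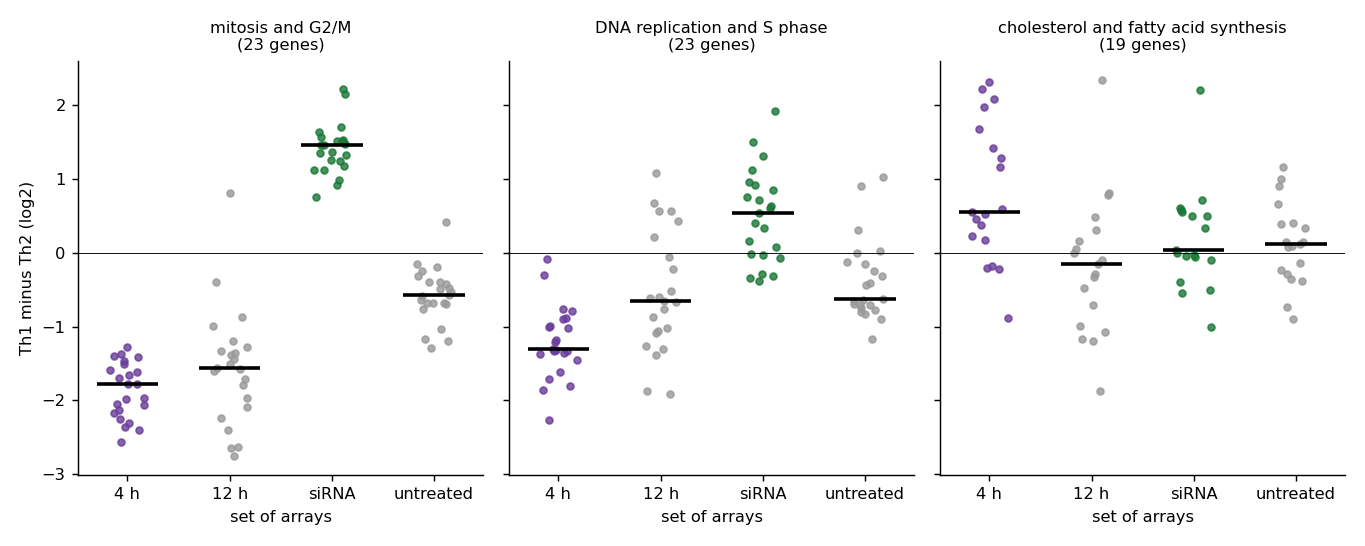
Th1 minus Th2 difference (log2, y axis) of each gene in 3 lists, by set of arrays (x axis), with a bar at the median. The 4 h and siRNA sets have 2 arrays a side, as does 12 h, and the untreated set has 1. The 12 h sides were not matched in 3′ bias. The mitosis and G2/M genes lie below 0 at 4 h and above 0 in the siRNA set, and the cholesterol genes spread upward at 4 h.

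Genes of cholesterol and fatty acid synthesis leaned to Th1 cells. In this list 13 of 19 genes were higher and 1 lower in Th1 cells (10 higher without the DN Trpm4 pair and 9 without the vector pair), with a median of 0.55. Cyp51, a demethylase of the sterol ring, had 10.96 (DN) and 11.31 (vector) in Th1 cells against 8.69 (DN) and 9.16 (vector) in Th2 cells (2.21, SE 0.16, adjusted p = 7.74e-07). Idi1, an isomerase of the isoprene units, had 10.07 (DN) and 10.14 (vector) in Th1 cells against 7.99 (DN) and 8.06 (vector) in Th2 cells (2.08, adjusted p = 8.82e-08). Insig1, a sterol-responsive regulator (1.97), and Sqle, squalene epoxidase (1.67), were higher too. The largest difference of the list was in Scd1, which desaturates fatty acids and had 7.71 (DN) and 7.96 (vector) in Th1 cells against 5.75 (DN) and 5.29 (vector) in Th2 cells (2.31). In the siRNA arrays the median of the list was 0.04, and the 4 h difference was the larger one in 11 of 19 genes and the smaller one in 2. The start region of Idi1 is shown as an example, with its 2 CCAAT words in capitals and no CHR word, and CCAAT was in 11 of the 13 genes of this list that had a window (84.6%).
Idi1, chr13:8885356-8885605 (plus strand): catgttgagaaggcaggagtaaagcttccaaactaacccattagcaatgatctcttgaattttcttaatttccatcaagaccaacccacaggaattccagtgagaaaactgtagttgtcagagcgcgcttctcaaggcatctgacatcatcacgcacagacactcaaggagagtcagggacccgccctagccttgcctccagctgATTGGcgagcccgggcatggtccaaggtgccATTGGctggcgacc

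Ribosome biogenesis genes were higher in Th1 cells in 12 of 20 cases and lower in 1, none by 2-fold, and without the DN Trpm4 pair 4 were higher and none lower. Nolc1, a nucleolar chaperone, had 10.44 (DN) and 10.29 (vector) in Th1 cells against 9.17 (DN) and 9.75 (vector) in Th2 cells (0.91, adjusted p = 0.000815), and Nop56, named after its values were seen, was the member that was lower (−0.44, adjusted p = 0.00447). Myc, which activates such genes, was higher by 1.41 (adjusted p = 2.51e-05). Glycolysis and hypoxia genes stayed near the share of all probe sets (4 higher and 2 lower of 19, and 1 higher without the DN Trpm4 pair), except that Hk2, hexokinase 2, was at 11.81 (DN) and 11.71 (vector) in Th1 cells against 9.42 (DN) and 10.16 (vector) in Th2 cells (1.97, adjusted p = 2.14e-05). The prolyl hydroxylase Egln3, a target of hypoxia factors, was lower (−1.19, adjusted p = 0.0012), a call lost without the vector pair (−1.05, adjusted p = 0.0539).

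Interferon-inducible GTPases were more often lower than higher in Th1 cells, in which Ifng was higher. Of the interferon-inducible GTPases 1 of 10 was higher in Th1 cells and 5 were lower. Iigp1, which acts on parasite vacuoles, had 10.10 (DN) and 9.98 (vector) in Th1 cells against 11.73 (DN) and 12.06 (vector) in Th2 cells (−1.85, SE 0.12, adjusted p = 4.39e-07), and Gbp3 was the exception, at 1.002 (adjusted p = 0.000127). In the siRNA arrays all 10 had negative differences (median −2.53), larger in size than at 4 h (median −0.45), and the change between the sets passed in 10 of 10. With the untreated pair in place of the siRNA arrays it passed in 2. In the type I interferon list 6 of 14 were lower and 1 higher (4 lower without the vector pair), led by Usp18 (−1.502) and Mx1 (−1.20).

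Calcium signalling genes, the pathway in which Trpm4 acts, differed little. In that list 3 of 26 were higher and 7 lower in Th1 cells, or 2 and 2 without the DN Trpm4 pair (median −0.07). Trpm4 itself was at 6.95 with DN Trpm4 and 6.35 with the vector in Th1 cells, against 6.995 (DN) and 6.90 (vector) in Th2 cells, so the groups overlapped (difference −0.30, SE 0.59, adjusted p = 0.734). Arrays with Trpm4 siRNA and with Thy1 siRNA counted as replicates in the fit, so any effect of these siRNAs on Trpm4 entered its SE. The median SE of all probe sets was 0.14, so this test says little about Trpm4. The sources used here do not say whether the Trpm4 probe set can read the viral transcript. Mcu, the pore of the mitochondrial calcium channel, was lower (−1.23, adjusted p = 7.43e-05), and Nfatc1, an activation-induced NFAT factor, was higher, with 10.19 (DN) and 10.18 (vector) in Th1 cells against 9.19 (DN) and 9.48 (vector) in Th2 cells (0.85, adjusted p = 0.00025), with 1 of its 4 other probe sets at −0.32. Thy1, the T cell surface protein whose siRNA serves as the control in another set, had 11.82 (DN) and 11.99 (vector) in Th1 cells against 11.97 (DN) and 11.74 (vector) in Th2 cells (adjusted p = 0.953). The limit given for the Trpm4 test holds for Thy1 too.

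Homing, survival and adhesion genes split. Among integrins and selectin ligands 7 of 17 were higher and 4 lower (4 higher when either pair was left out). Itgae, the alpha E integrin of epithelial lymphocytes, had 7.73 (DN) and 8.01 (vector) in Th1 cells against 10.91 (DN) and 10.41 (vector) in Th2 cells (−2.79, adjusted p = 2.3e-07), and its beta partner Itgb7 was lower as well (−1.49). Itgb1 was the integrin that was furthest higher (1.27). Pmaip1, which encodes the death inducer Noxa, had 9.92 (DN) and 9.93 (vector) in Th1 cells against 7.55 (DN) and 7.48 (vector) in Th2 cells (2.41, adjusted p = 4.57e-08), in a survival list with 6 of 15 higher and 2 lower. The quiescence and homing list had 7 higher and 2 lower of 15, the ER folding list 5 higher and 4 lower of 20, and the actin list 4 higher and 8 lower of 27. Without the DN Trpm4 pair these became 4 and 1, 1 and 1, and 1 and 3, and in the survival list 5 and 0.

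Markers of other cells were mostly at or below the middle of the array. Of the macrophage and dendritic cell list 4 of 13 genes read were tested and 1 passed, Itgax, which was lower in Th1 cells (−1.56, adjusted p = 1.23e-05). Of 9 B cell genes 4 were tested: Ebf1 was higher (2.33) and Fcmr lower (−1.01). None of the 3 neutrophil genes tested passed, 1 of the 2 mast cell and basophil genes tested was lower (Cpa3, −0.38), and no erythroid gene was tested. The Cpa3 call was lost in 9 alternative settings, among them the virus as a block (adjusted p = 0.0639), no block (adjusted p = 0.0624) and without the DN Trpm4 pair (−0.19). Of 10 fibroblast genes 4 were tested, with Lum (1.41) and Thbs1 (0.51) higher and Pdgfrb (−2.88) and Fn1 (−1.30) lower, while the collagen genes of the list were not tested, and the Thbs1 call was lost in 8 alternative settings, among them without the vector pair (0.33) and without the DN Trpm4 pair (0.70). In the Treg and Th17 list Ikzf2 and Ctla4 were higher, Ctla4 not without the DN Trpm4 pair (0.23), and Foxp3 and Il17a, the defining genes, were not tested. Summed deposited signals in Th1 cells against Th2 cells were 368 to 395 against 248 to 258 for the B cell list, 292 to 308 against 345 to 370 for the macrophage and dendritic cell list and 185 to 189 against 334 to 357 for the fibroblast list. They were 143 to 155 against 156 to 157 for the neutrophil list, 166 to 169 against 195 to 247 for the mast cell list and 39.7 to 43.6 against 45.9 to 49.1 for the erythroid list, again Th1 cells against Th2 cells. The part of these cells in the other results was not tested.

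**Figure D5:**
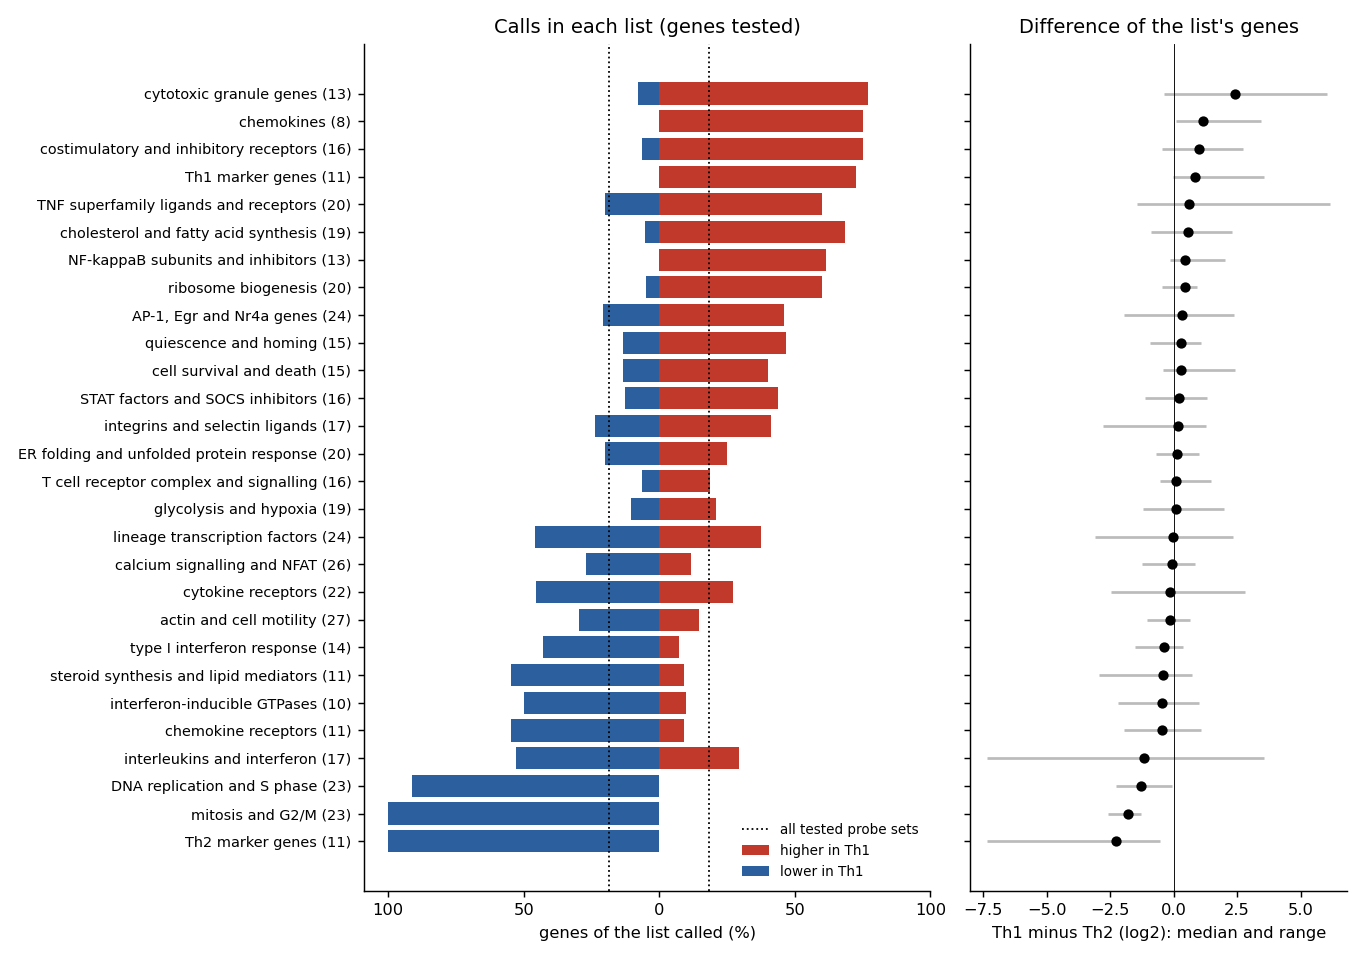
Share of the tested genes of each list (number in brackets) that were higher (right) or lower (left) in Th1 cells at 4 h, with dotted lines at the shares of all tested probe sets, and on the right the median (point) and range (line) of the Th1 minus Th2 differences (log2). The mitosis, S phase and Th2 marker lists fill the lower side, and the granule, chemokine and costimulatory lists the higher side.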

How the data were processed

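The deposited table holds a probe set signal for each of 14 arrays of the Affymetrix MG430 2.0 type, read here as linear intensity from the range of its values; the sources used here do not say how probes were summarised or arrays scaled. Per the labels' protocols, Trizol was used for extraction and biotin for labelling, followed by standard Affymetrix steps. The 45101 probe sets include 64 controls, and 34945 carry 1 gene symbol, 932 several and 9160 none in the platform annotation used, of which 34754 matched RefSeq by Entrez ID. Only probe sets with 1 symbol were named. Signals of all 14 arrays were quantile-normalised and taken as log2(signal + 16). Probe sets with a signal over the array median in 2 or more of the 4 h arrays were fitted with limma 3.58.1 (lmFit and eBayes, R 4.3.3) over all 14 arrays with 8 group means and 6 residual degrees of freedom, p-values adjusted by Benjamini-Hochberg over all tested probe sets, threshold 0.05. Other groups entered because 4 arrays alone leave little to estimate the spread; the arrays' number limits the precision. The siRNA contrast, Th1 minus Th2 at 4 h less the same in the siRNA arrays, came from the same fit.

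Genes named were the 15 furthest in each direction, up to 6 per list, the 8 furthest in each direction of the siRNA contrast, and Trpm4, Thy1, Tbx21, Gata3, Ifng and Il4; others are marked as chosen later. The arrays and the lists were chosen with earlier results of these data known. On simulated data with 23443 probe sets, the Th1 against Th2 test at 4 h recovered 32% of 1.5-fold, 94% of 2-fold and 100% of 4-fold changes, and the siRNA contrast 2%, 56% and 96%. Only 50 changes of each size were planted, and the false calls were 11 and 7. In the real data 37.0% of probe sets were called at 4 h, so these rates hold only for such sparse changes. Promoter windows came from RefSeq on GRCm38.p6. Tables and figures were made with Python 3.11.15, pandas 2.3.3, numpy 2.4.6 and matplotlib 3.10.9. Alternatives covered normalization, the pseudocount, the filter, probe set choice, the variance model, the arrays in the fit, and leaving out each pair.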

Additional observations from a re-analysis of the deposited data

Results flagged for a closer look

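The Th1 minus Th2 difference at 4 h departed from that in the siRNA arrays in many probe sets by a test of the difference itself (limma, Benjamini-Hochberg): it was larger in 4206 and smaller in 4078 of the 23443 tested. The largest positive departures among named genes were 5.98 for Xist, 4.56 for Bace2, 4.51 for Gzmc, 4.15 for Ipcef1, 4.09 for Ms4a4c, 4.04 for Bcl2l11, 3.98 for Gbp2 and 3.65 for Styk1. Bace2, an aspartic protease, had 7.02 (DN) and 7.13 (vector) in Th1 cells against 6.84 (DN) and 6.71 (vector) in Th2 cells at 4 h, against a siRNA difference of −4.25. Ms4a4c differed by 3.69 at 4 h, against −0.40 in the siRNA arrays, and Styk1 by 3.88 at 4 h, against 0.22. The largest negative departures were −5.24 for Ccr7, −4.27 for Eif2s3y, −4.20 for Ccna2, −3.97 for Ccnb2, −3.81 for Myb, −3.80 for Ifitm1, −3.79 for Csgalnact1 and −3.77 for Rrm2. Ifitm1, an antiviral membrane protein, differed by −0.40 at 4 h, against 3.40 in the siRNA arrays, and Csgalnact1, an enzyme of chondroitin synthesis, by −0.496 at 4 h, against 3.30. With the untreated pair in place of the siRNA arrays, Xist (0.03, adjusted p = 0.947), Gzmc (0.97, adjusted p = 0.0763) and Gbp2 (0.61) lost the call, and Ccr7, Eif2s3y, Myb and Ipcef1 changed sign. The sets also differed in 3′ bias and in sex-linked transcripts, and the part of either was not tested.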

How the results depend on the processing

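Of 4085 comparisons of named results with 20 alternative settings, 3952 kept their direction and their side of the threshold, 103 lost the call, 10 gained it and 20 changed sign. No gene called in the 4 h comparison changed sign. The arrays of the cell types pair only by the virus they share. With the virus as a block (replicate block) in the 4 arrays alone, 4255 probe sets were higher and 4121 lower, and without it 4046 and 3973. With 1 probe set per gene, 1881 of 10815 were higher and 2660 lower in Th1 cells, and 1968 larger and 2421 smaller than in the siRNA set. Leaving out a pair gave 1750 to 3168 higher and 2139 to 3147 lower at 4 h, lowest without the DN Trpm4 pair, and 2721 to 3306 larger and 2624 to 3265 smaller than in the siRNA set. Without the Thy1 siRNA pair 2724 were larger and 2624 smaller. With the untreated pair in place of the siRNA set, chosen after seeing the data, 4072 were larger and 2706 smaller. Some of these settings had fewer probe sets or arrays in the fit, and the cause of the shifts in counts was not tested.

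Sign changes when a pair was left out, given as the value without the DN Trpm4 pair and then without the vector pair, were in Csf1r (0.443 and −0.0182), Thy1 (0.250 and −0.149), Lst1 (0.113 and −0.0754), Hlx (0.340 and −0.00567), Pcna (−0.208 and 0.0435), Cd14 (−0.0583 and 0.394), Ltf (0.00766 and −0.0714), Ngp (0.00784 and −0.0590), Mpo (−0.234 and 0.268), Il2ra (−0.174 and 0.366) and Uty (−0.120 and 0.239). With no normalization the sign changed in Mpo (−0.0318), Lst1 (−0.0243) and Pcna (0.00063), and with median centring in Cxcr3 (0.0319) and Pcna (0.0401). With the untreated pair the departures of Eif2s3y (1.20), Ccr7 (1.16), Ipcef1 (−0.29) and Myb (2.14) changed sign, and Xist (0.03), Gzmc (0.97) and Gbp2 (0.61) lost the call. Most calls that were lost in the 4 h comparison were lost when a pair was left out, 34 without the DN Trpm4 pair and 20 without the vector pair. Changes under 2-fold and signals near the floor are the least secure here, and the 4 h arrays read transcripts mainly near their 3′ ends.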

Other observations

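Probe sets with no single gene symbol were called in another proportion than named ones. Of the 4188 tested probe sets with no symbol or several, 20.42% were higher and 10.96% lower in Th1 cells at 4 h, whereas of the 19255 named ones 18.11% were higher and 20.08% lower. No test of this contrast was made. Of 1470 genes with 2 or more called probe sets, 111 had probe sets called in opposite directions. The DN Trpm4 minus vector difference in Th1 cells and that in Th2 cells correlated at r = 0.02 across the tested probe sets, a description with 1 array on each side.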
